A study of Mus musculus with 8 samples.

Results

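The genes described here encode the proteins of the cytosolic ribosome. They were chosen by symbol: every gene whose symbol begins with Rpl or Rps followed by a digit, or with Rplp, without pseudogene symbols and without the Rps6k kinases. This gave 86 of the 16337 genes in the table. They comprise 30 small subunit genes, 46 large subunit genes, 9 paralogs or retrogenes (Rpl3l, Rpl7l1, Rpl10l, Rpl22l1, Rpl32l, Rpl36al, Rpl37rt, Rpl39l and Rps27l) and 1 gene, Rps19bp1, that encodes a binding protein of Rps19 and not a ribosomal protein. The symbol rule does not catch every such gene, for example Rpsa and Fau, whose values are given with the partner genes further on. RNA came from primary hepatocytes, the main parenchymal cells of the liver, isolated by collagenase digestion. The 4 groups were Hamp-/- mice given CCl4, Hamp-/- mice given olive oil, wild-type C57BL/6 mice given CCl4 and wild-type C57BL/6 mice given olive oil. CCl4 (carbon tetrachloride) is a solvent that hepatocytes convert into a toxic radical; it was given at 12.5% in olive oil, the exposure lasted 24 h in all groups, and all mice were males aged 4 weeks. Hamp encodes hepcidin, the liver hormone that limits iron export into blood, and how the Hamp allele was made is not given in the sources used here. The design states 6 mice per group, while 2 libraries per group were analysed; no label says whether a library is 1 animal or a pool, so every p-value measures the spread between libraries, which may be technical.

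The cytosolic ribosome is built from a small subunit, which reads the mRNA, and a large subunit, which joins amino acids. Each subunit needs close to 1 copy of each protein, and in mammals most of these proteins come from a single gene, with a few paralogs expressed in particular tissues. Most of their mRNAs are TOP mRNAs, which begin with a run of pyrimidines (C and T) that lets mTOR signalling switch their translation as a group, so the mRNA level and the amount of protein made need not move together. An RNA level is measured here, and translation is not.

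Because this pyrimidine run lies at the transcription start, the first bases of the members that moved most and of the main paralogs are shown. The RefSeq promoter table, on build GRCm38.p6, holds 66 of the 86 members with 78 promoters among 32851 in all. Each line gives 30 bases before and 30 from the annotated start, 5′ to 3′ on the gene's strand. Capitals mark the pyrimidine word CTTTC, the word CTCTT and the word CTTCC, all on the gene's strand, and CCGGAAG, the core bound by ETS family factors, on either strand (its reverse complement contains CTTCC, so these overlap). Rpl12, Rpl35, Rps12 and Rpl27a were among the largest increases, Rpl38 had the largest replicate difference in the Hamp-/- CCl4 group, and Rpl22l1, Rps27l, Rpl36al and Rpl7l1 are paralogs.
Rpl12 (chr2:32961682-32961741, + strand): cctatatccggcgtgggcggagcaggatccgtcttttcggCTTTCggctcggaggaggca
Rpl35 (chr2:39005102-39005161, - strand): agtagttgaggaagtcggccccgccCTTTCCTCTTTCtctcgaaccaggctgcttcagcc
Rpl27a (chr7:109519165-109519224, + strand): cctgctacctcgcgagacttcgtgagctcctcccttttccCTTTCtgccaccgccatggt
Rpl38 (chr11:114668550-114668609, + strand): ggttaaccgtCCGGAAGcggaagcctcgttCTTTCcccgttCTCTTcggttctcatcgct
Rps12 (chr10:23787180-23787239, - strand): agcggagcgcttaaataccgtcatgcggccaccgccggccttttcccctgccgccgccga
Rpl22l1 (chr3:28805478-28805537, + strand): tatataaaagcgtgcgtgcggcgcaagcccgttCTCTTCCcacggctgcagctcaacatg
Rpl36al (chr12:69184038-69184097, - strand): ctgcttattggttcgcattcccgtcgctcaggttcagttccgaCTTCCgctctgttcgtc
Rps27l, first start (chr9:66946056-66946115, + strand): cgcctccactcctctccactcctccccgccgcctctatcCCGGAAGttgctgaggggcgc
Rpl7l1 (chr17:46782627-46782686, - strand): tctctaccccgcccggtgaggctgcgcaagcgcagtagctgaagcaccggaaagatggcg
In a window of 50 bases either side of the start, CTTTC occurred in 46.2% of the member promoters and in 12.8% of all promoters. CTCTT occurred in 43.6% of member promoters and 13.5% of all, and CTTCC in 44.9% and 19.5%. At least 1 of these 3 words stood in 75.6% of member promoters and in 36.3% of all promoters. CCGGAAG was found in 17.9% of member promoters and 5.2% of all, and TATAA, searched on the gene's strand, in 12.8% and 6.8%. These are matches of letters, not bound sites. Rpl7l1 and Rps12 held none of the marked words in the 60 bases shown. The words do not catch every run of C and T, since Rps12 holds ccttttcccct after the annotated start.

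The values are FPKM as deposited, which count sequenced fragments relative to a transcript's length and to the size of the library, and the number of reads per library is unknown. The 8 libraries held 8867 to 9384 genes at 1 FPKM or more. Replicates of each wild-type group correlated at 0.998 across genes, with a replicate difference of SD 0.139 on the log2 scale. The Hamp-/- replicates were farther apart, with r = 0.982 and SD 0.394 after CCl4 and r = 0.985 and SD 0.364 in oil. Hamp itself was at most 2.72 FPKM in the 4 Hamp-/- libraries and at least 1135.74 FPKM in the 4 wild-type libraries, as the labels state. All 7 hepatocyte markers were detected, at 11.1% and 8.34% of summed FPKM in Hamp-/- CCl4, 13.8% and 12.2% in Hamp-/- oil, 8.37% and 8.55% in wild-type CCl4, and 8.02% and 7.91% in wild-type oil. In Hamp-/- with CCl4, where the ribosomal protein genes rose, 4 of the 7 fell and 0 rose. In the interaction 4 passed with a negative value, a CCl4 change more negative in Hamp-/- than in wild type. The 8 macrophage markers summed to 0.0632% and 0.0752% in Hamp-/- CCl4, 0.0351% and 0.0433% in Hamp-/- oil, 0.0269% and 0.0285% in wild-type CCl4 and 0.00332% and 0.00373% in wild-type oil. Their sum was highest in the same group as the ribosomal protein genes. Between genotypes, all 8 were higher in Hamp-/- in oil, and 7 were higher and 0 lower after CCl4. With CCl4, 3 of the 8 rose and 2 fell in Hamp-/-, and 6 rose and 0 fell in wild type. In the interaction 0 passed with a positive and 5 with a negative value. The 6 neutrophil and monocyte markers summed to 0.0112% and 0.0132% in Hamp-/- CCl4 against 0.00109% and 0.00151% in Hamp-/- oil, and to 0.0138% and 0.0142% in wild-type CCl4 against 0.00132% in each wild-type oil library, and were thus as high in wild-type as in Hamp-/- cells after CCl4. The 6 endothelial markers summed to 0.00367% and 0.00321% in Hamp-/- CCl4, 0.00635% and 0.00729% in Hamp-/- oil, 0.000576% and 0.000656% in wild-type CCl4, and 0.000871% and 0.00122% in wild-type oil. All 6 were higher in Hamp-/- than in wild type, both in oil and after CCl4, and with CCl4 in Hamp-/- 3 fell and 0 rose. Of these 4 lists, no marker was at 0 in all 8 libraries. In 4 further lists few markers were tested: 1 stellate, 2 cholangiocyte, 0 lymphocyte and 2 erythroid. The stellate sum was highest in Hamp-/- CCl4 (0.00111% and 0.000797%), as was the cholangiocyte sum (0.00067% and 0.00072%). With CCl4 in Hamp-/-, the 1 stellate and 2 cholangiocyte markers rose, and of the erythroid markers 1 rose and 1 fell. The erythroid sum was highest in wild-type CCl4 (0.00769% and 0.00778%). The part of other cell types in the results was not tested. In such bulk libraries, a change in the make-up of the cells and a change in RNA per cell cannot be told apart.

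The ribosomal protein genes took the largest share of the transcriptome in Hamp-/- hepatocytes after CCl4. They made up 5.64% and 6.30% of summed FPKM in the 2 Hamp-/- CCl4 libraries, 3.53% and 3.99% in Hamp-/- oil, 3.76% and 3.63% in wild-type CCl4, and 2.96% and 3.09% in wild-type oil. The 4 groups did not overlap apart from Hamp-/- oil and wild-type CCl4, whose values interleaved. Small subunit genes contributed 2.21% and 2.47% in Hamp-/- CCl4, 1.36% and 1.54% in Hamp-/- oil, 1.46% and 1.41% in wild-type CCl4, and 1.16% and 1.21% in wild-type oil. Large subunit genes contributed 3.30% and 3.71% in Hamp-/- CCl4, 2.07% and 2.35% in Hamp-/- oil, 2.20% and 2.12% in wild-type CCl4, and 1.72% and 1.80% in wild-type oil. Both subunits thus followed the same order, and the large subunit held more because it has more genes. FPKM is a share of each library, so these values do not give ribosomal protein mRNA per cell.

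**Figure D1:**
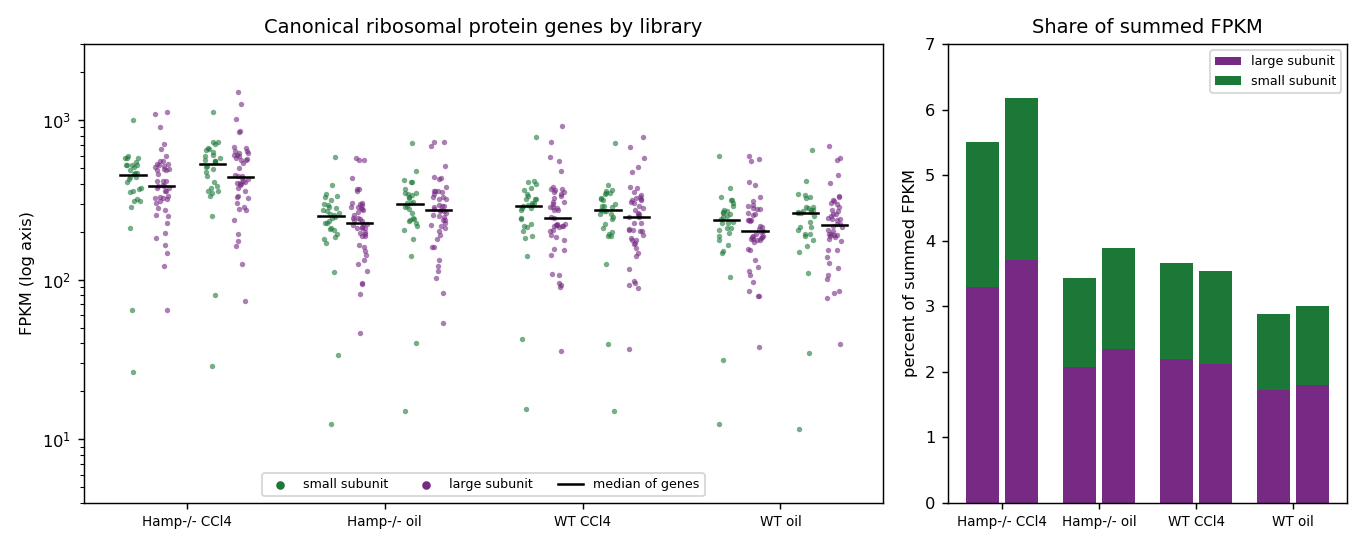
Left, FPKM (log axis) of the 76 small and large subunit genes in each of the 8 libraries, 1 point per gene with the median as a line; right, the share of summed FPKM held by the large and small subunit genes in each library, as stacked bars from 0. The 2 Hamp-/- CCl4 libraries stand above the other 6 in both subunits.

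Levels differed widely among the members. The highest mean FPKM over the 8 libraries belonged to Rpl41 (865.4), which encodes a very short peptide of the large subunit, Rplp1 (773.5), a stalk protein, Rps2 (772.7), Rpl10 (681.6), which joins the large subunit late in its assembly, and Rpl28 (536.6). At the other end of the 82 tested members were the retrogene Rpl37rt (12.5), Rps19bp1 (14.1), Rps15a (17.2), the paralog Rpl7l1 (23.5) and Rps20 (45.9). Rps15a and Rps20 were matched to the longest transcripts of the set, of 5179 and 3706 bases, where the median member had 816 bases. The rank correlation of mean FPKM with transcript length over the tested members was -0.312, a description over 82 genes that share the same libraries. A long annotated transcript lowers FPKM where the reads come from a shorter form, so these 2 levels are uncertain. The members lay on 19 chromosomes.

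After CCl4, Hamp-/- hepatocytes had higher FPKM of nearly every ribosomal protein gene than Hamp-/- hepatocytes given oil. Of the 82 tested members, 80 rose and 0 fell, with a median log2 fold change of 0.75, or 1.68-fold; 27.9% of all 10082 tested genes rose in this comparison, and their median was -0.03. All 30 small subunit genes rose, by 0.56 to 1.15 with a median of 0.78, and all 46 large subunit genes rose, by 0.47 to 1.21 with a median of 0.73. The ranges of the 2 subunits overlapped almost fully, and no difference between them was tested. The call used limma on log2(FPKM + 1) with Benjamini-Hochberg adjustment over all genes at 0.05. Leaving out any single library, or replicate 1 or replicate 2 of both Hamp-/- groups, kept the count of called members within 1.5 times of 80.

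The largest increase was that of Rpl12, a protein at the base of the stalk where elongation factors bind. It had 533.55 and 620.69 FPKM in Hamp-/- CCl4 against 224.45 and 276.31 FPKM in Hamp-/- oil. The groups were far apart, and the log2 fold change was 1.21 ± 0.12 (SE, n = 2 each; limma adjusted p = 0.000266). Rps12, a protein of the beak of the small subunit, had 577.55 and 664.67 FPKM in Hamp-/- CCl4 against 255.71 and 304.16 FPKM in Hamp-/- oil, a log2 fold change of 1.15 ± 0.11 (adjusted p = 0.000193, limma). Rps27a, which is made as a fusion with ubiquitin, had 439.60 and 496.76 FPKM in Hamp-/- CCl4 against 205.18 and 243.08 FPKM in Hamp-/- oil (1.06 ± 0.10, adjusted p = 0.000192, limma). Both more than doubled, with no overlap between groups. Rpl35, near the exit tunnel of the large subunit, had 557.69 and 682.20 FPKM in Hamp-/- CCl4 against 272.60 and 327.72 FPKM in Hamp-/- oil, a log2 fold change of 1.04. In each of these 4 genes, the lower Hamp-/- CCl4 library was above the higher Hamp-/- oil library. The 2 members that did not pass were the paralogs Rpl7l1 (-0.05, adjusted p = 0.671) and Rps27l (0.09, adjusted p = 0.504).

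**Figure D2:**
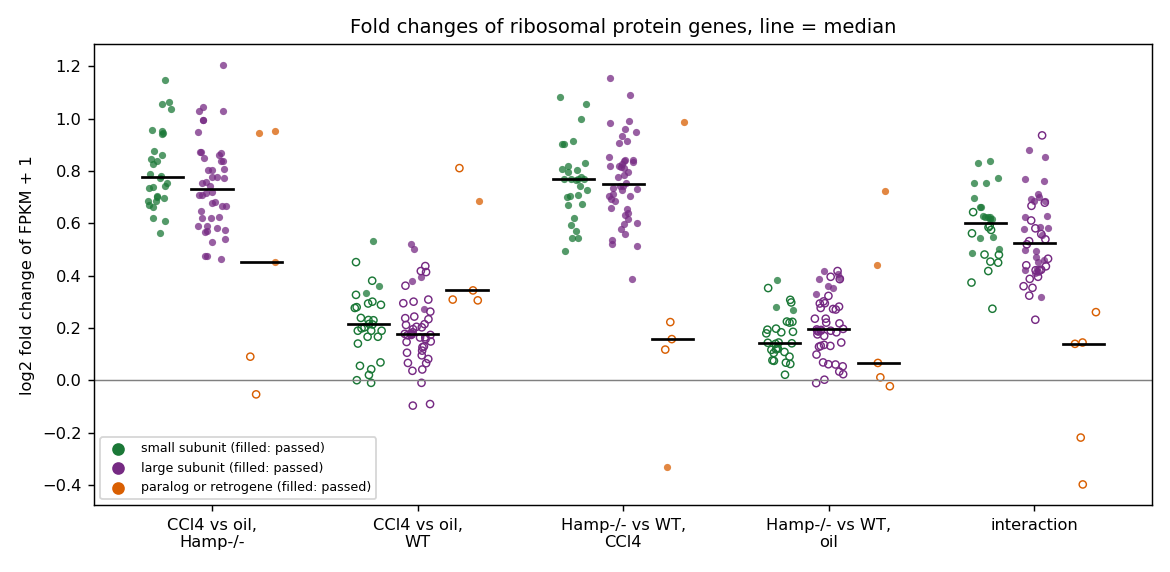
Log2 fold changes on the log2(FPKM + 1) scale of the tested small subunit, large subunit and paralog genes in each comparison; each point is a gene, and filled points passed the test. Points lie near 0.75 in the 2 comparisons that hold the Hamp-/- CCl4 group on top and near 0.2 in the CCl4 effect in wild type and the genotype effect in oil.

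Hamp-/- hepatocytes given CCl4 also stood above wild-type hepatocytes given CCl4. This comparison shares the Hamp-/- CCl4 libraries with the preceding one, so the values of both rest in part on the same measurements. Of 82 tested members, 78 were higher and 1 was lower, with a median log2 fold change of 0.75; of all tested genes, 29.6% were higher and 27.5% lower, with a median of -0.02. All 76 small and large subunit genes were higher, by 0.50 to 1.08 in the small subunit and 0.39 to 1.16 in the large. Rpl36, a large subunit protein, had 374.25 and 503.60 FPKM in Hamp-/- CCl4 against 221.97 and 170.33 FPKM in wild-type CCl4, a log2 fold change of 1.16 ± 0.23 (SE, n = 2 each; limma adjusted p = 0.00549). Its replicates were far apart in both groups, although the groups did not overlap. Rpl37, a zinc-binding large subunit protein, had 197.15 and 238.01 FPKM in Hamp-/- CCl4 against 107.29 and 95.27 FPKM in wild-type CCl4, 1.09 higher on the log2 scale (adjusted p = 0.00048, limma). Rps14, of the platform of the small subunit, had 522.57 and 651.54 FPKM in Hamp-/- CCl4 against 282.45 and 267.69 FPKM in wild-type CCl4, with a log2 fold change of 1.08. Rps27a and Rps12 differed by 1.05 and 1.00. The largest of these differences were close to a doubling, and the smallest among the subunit genes was 0.39.

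The response to CCl4 differed between the genotypes for many members in the interaction test. This test asks whether the change in Hamp-/- differs from the change in wild type, in either direction. Of 82 tested members, 43 passed with a larger CCl4 response in Hamp-/- and 0 with a smaller one. Of all tested genes, 14.3% passed with a larger and 19.0% with a smaller response. The medians were 0.55 for the members and -0.09 for all genes. By subunit, 18 of 30 small and 25 of 46 large subunit genes passed. The largest value among those that passed was that of Rpl27a, a large subunit protein, whose CCl4 response was 0.99 in Hamp-/- and 0.11 in wild type. Rpl27a had 330.08 and 401.28 FPKM in Hamp-/- CCl4 against 164.84 and 201.57 FPKM in Hamp-/- oil, and 202.32 and 178.52 FPKM in wild-type CCl4 against 176.34 and 174.74 FPKM in wild-type oil. Its interaction was 0.88 ± 0.19 (SE; limma adjusted p = 0.0138), and the 2 Hamp-/- CCl4 libraries lay above the other 6. Rpl30, which also binds its own transcript in yeast, had 0.86, Rps27a 0.83 and Rps14 0.78. The count of 43 depended on single libraries. It was 14 without wild-type CCl4 replicate 1, 6 without wild-type CCl4 replicate 2, 8 and 5 without wild-type oil replicates 1 and 2, 22 without Hamp-/- CCl4 replicate 2, 19 without Hamp-/- oil replicate 1 and 70 without Hamp-/- CCl4 replicate 1. The direction of the median was positive in each of these.

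**Figure D3:**
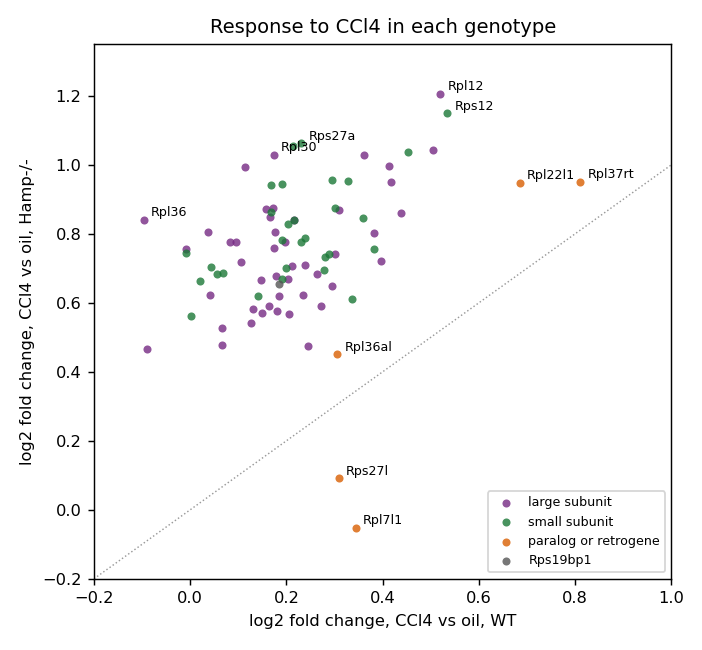
Each point is a tested member, with its log2 fold change of CCl4 over oil in Hamp-/- on one axis and in wild type on the other, on the log2(FPKM + 1) scale. Most points sit near 0.75 in Hamp-/- and near 0.2 in wild type, and the paralogs Rps27l and Rpl7l1 sit near 0 in Hamp-/-.

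Under oil, the genotypes differed less. Of 82 tested members, 12 were higher in Hamp-/- oil than in wild-type oil and 0 were lower, a share of 14.6% where 22.4% of all tested genes were higher, so the share of members called was below that of all genes in this fit. The relation turned in some other fits and held in others. With length and GC trends removed, 31.7% of members and 22.9% of all genes were higher, with a block for the number of the Hamp-/- libraries alone 68.3% and 34.7%, and without replicate 1 of both Hamp-/- groups 86.6% and 33.5%. With a replicate block over all groups the shares were 23.2% and 23.1%. Members stayed below all genes with equal library medians (1.22% and 17.2%) and quantile normalization (12.2% and 17.3%). They also did with only the libraries compared (8.54% and 19.2%) and with library weights (18.3% and 21.6%). The median log2 fold change in the main fit was 0.19 for the members and 0.05 for all genes. Without replicate 1 of both Hamp-/- groups these medians were 0.304 and 0.054, and without replicate 2 of both 0.069 and 0.074. Both Hamp-/- oil libraries were above both wild-type oil libraries in 44 members, against 41.5% of all genes. Rpl22l1 had the largest difference and is described with the paralogs. Rpl19, a large subunit protein with an arm that reaches the small subunit, had 302.66 and 359.72 FPKM in Hamp-/- oil against 236.63 and 256.81 FPKM in wild-type oil (0.42 ± 0.11 SE, n = 2 each; limma adjusted p = 0.0299). Rpl3, which lies next to the peptidyl transferase centre, had 193.64 and 218.85 FPKM in Hamp-/- oil against 155.74 and 154.11 FPKM in wild-type oil, 0.41 higher, and Rpl23a, at the exit of the tunnel, was 0.39 higher. These 3 groups of values did not overlap between genotypes, and the differences were 1.34-fold, 1.33-fold and 1.31-fold. The other members called were Rpl6, Rpl10a, Rpl22, Rpl39, Rps4x, Rps12, Rps24 and Rps27l. The count was 1, Rpl22l1 alone, without Hamp-/- oil replicate 2 or without either wild-type oil library, 19 without Hamp-/- oil replicate 1, 18 without either Hamp-/- CCl4 library and 5 without either wild-type CCl4 library. The median of the members was 0.07 without Hamp-/- oil replicate 2 and 0.30 without Hamp-/- oil replicate 1.

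In wild-type hepatocytes, CCl4 raised few members past the threshold. Of 82 tested, 9 rose and 0 fell, a share close to the 10.2% of all tested genes that rose, and the median log2 fold change was 0.20 for the members and 0.04 for all genes. Both wild-type CCl4 libraries were above both wild-type oil libraries in 70 of the 82 members, against 42.5% of all genes. The shift was thus small and shared by most members, and few single genes passed. Rps12 had 322.13 and 297.86 FPKM in wild-type CCl4 against 212.23 and 215.11 FPKM in wild-type oil (0.53 ± 0.11 SE, n = 2 each; limma adjusted p = 0.0207). Rpl12 had 306.96 and 306.27 FPKM in wild-type CCl4 against 202.66 and 224.82 FPKM in wild-type oil (0.52, adjusted p = 0.0341, limma), and Rpl35 was 0.50 higher. Rps12, Rpl12 and Rpl35 were thus among the largest increases in both genotypes. The other members called were Rpl22l1, Rplp0, Rpl21, Rpl39, Rps4x and Rps24. The count was 1, Rpl22l1, when any 1 of the 4 wild-type libraries was left out, and 14 without either Hamp-/- CCl4 library. It was 59 when the 4 wild-type libraries were fitted alone, or 72.0% of the members where 26.0% of all genes rose. The closeness to the share of all genes in the main fit thus depended on the settings, also among fits of all 8 libraries. Library weights gave 56.1% of members and 22.2% of all genes, and a block for the Hamp-/- libraries alone 74.4% and 24.7%. Quantile normalization gave 23.2% and 8.35%, and equal library medians 1.22% and 7.21%. With a replicate block over all groups the shares stayed close, at 13.4% and 10.4%. The main fit takes 1 spread from wild-type and Hamp-/- replicates together.

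The 3 stalk genes, which encode the flexible arm that recruits elongation factors, followed the rest of the set. Rplp0 had 487.46 and 577.79 FPKM in Hamp-/- CCl4 against 301.91 and 342.38 FPKM in Hamp-/- oil, and 368.85 and 373.56 FPKM in wild-type CCl4 against 277.57 and 285.86 FPKM in wild-type oil. It rose in both genotypes, by 0.72 in Hamp-/- and 0.40 in wild type (limma adjusted p = 0.00116 and 0.0452). Rplp1 and Rplp2 rose in Hamp-/- by 0.87 and 1.03, while their values in wild type, 0.31 and 0.36, did not pass. None of the 3 passed the interaction test in the main fit, with adjusted p of 0.134, 0.0665 and 0.0589 for Rplp0, Rplp1 and Rplp2 (limma). With length and GC trends removed, Rplp0 (0.31, limma adjusted p = 0.00396) and Rplp2 (0.50, limma adjusted p = 0.00503) passed. Rplp1 (0.09, limma adjusted p = 0.341) did not.

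The paralogs did not behave as 1 group. Rpl10l, Rpl32l, Rpl39l and Rpl3l, which in mammals are known from testis or muscle or are retrogenes, were listed at 0.46 FPKM or less in every library and were not tested. Rpl22l1, the paralog that in mouse cells is held low by Rpl22, had 118.99 and 126.20 FPKM in Hamp-/- CCl4, 60.81 and 65.47 in Hamp-/- oil, 63.34 and 59.45 in wild-type CCl4, and 36.73 and 38.86 in wild-type oil. It passed in all 4 comparisons between 2 groups, as did Rpl39, Rps4x, Rps12 and Rps24, and had the largest value among the called members for CCl4 in wild type and for genotype in oil. It rose with CCl4 by 0.95 ± 0.08 in Hamp-/- and by 0.69 ± 0.08 in wild type (SE, n = 2 each; limma adjusted p = 9.8e-05 and 0.00199). It was higher in Hamp-/- than in wild type by 0.73 in oil and 0.99 after CCl4 (limma adjusted p = 0.000853 and 0.0001), and its interaction of 0.26 did not pass (adjusted p = 0.115). Rpl22 itself had 64.96 and 73.80 FPKM in Hamp-/- CCl4 against 46.29 and 53.75 FPKM in Hamp-/- oil, and 35.86 and 36.61 FPKM in wild-type CCl4 against 37.72 and 39.56 FPKM in wild-type oil. It rose with CCl4 in Hamp-/- by 0.47, and its value in wild type was -0.09 (adjusted p = 0.648, limma).

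Rps27l, a paralog of Rps27 that p53 is known to induce, had 185.83 and 221.67 FPKM in Hamp-/- CCl4, 179.44 and 202.29 in Hamp-/- oil, 179.54 and 168.18 in wild-type CCl4, and 141.00 and 139.20 in wild-type oil. Its 2 Hamp-/- groups overlapped, and it passed only the genotype comparison in oil, at 0.44 (limma adjusted p = 0.0197). Rpl7l1, a relative of Rpl7, had 22.19 and 21.58 FPKM in Hamp-/- CCl4 against 25.88 and 29.78 FPKM in wild-type CCl4. It was the 1 member that was lower, by a log2 fold change of -0.33 ± 0.10 (SE, n = 2 each; limma adjusted p = 0.0243), and this did not pass without wild-type CCl4 replicate 2 (-0.23, adjusted p = 0.151), without Hamp-/- CCl4 replicate 2 (-0.31, adjusted p = 0.0741) or with library medians set equal (-0.28, adjusted p = 0.0892), and its adjusted p was 0.0605 with library weights and 0.0622 with only the libraries compared. Rpl36al, nearly identical in sequence to Rpl36a, had 384.76 and 345.50 FPKM in Hamp-/- CCl4 against 265.64 and 267.28 FPKM in Hamp-/- oil and rose by 0.45, less than the median member. Rpl37rt, a retrogene of Rpl37, had 14.50 and 19.79 FPKM in Hamp-/- CCl4 against 6.38 and 10.69 FPKM in Hamp-/- oil (0.95, adjusted p = 0.0322, limma), and this call was lost in many alternatives. Its adjusted p was 0.134 without Hamp-/- CCl4 replicate 2, 0.141 without Hamp-/- oil replicate 1, 0.0521 and 0.0522 without wild-type oil replicate 1 or 2, 0.116 with library weights, 0.0617 with only the libraries compared, 0.0572 with no filter and 0.0598 with length and GC trends removed. Ribosomal protein genes have many processed copies in the mouse genome, and how reads that match both a gene and a copy were counted is unknown, so levels of Rpl36al, Rpl36a, Rpl37 and Rpl37rt are uncertain. Rps19bp1, the gene that encodes no ribosomal protein, had 16.84 and 22.92 FPKM in Hamp-/- CCl4 against 11.04 and 13.30 FPKM in Hamp-/- oil and rose by 0.66 (limma adjusted p = 0.0108).

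**Figure D4:**
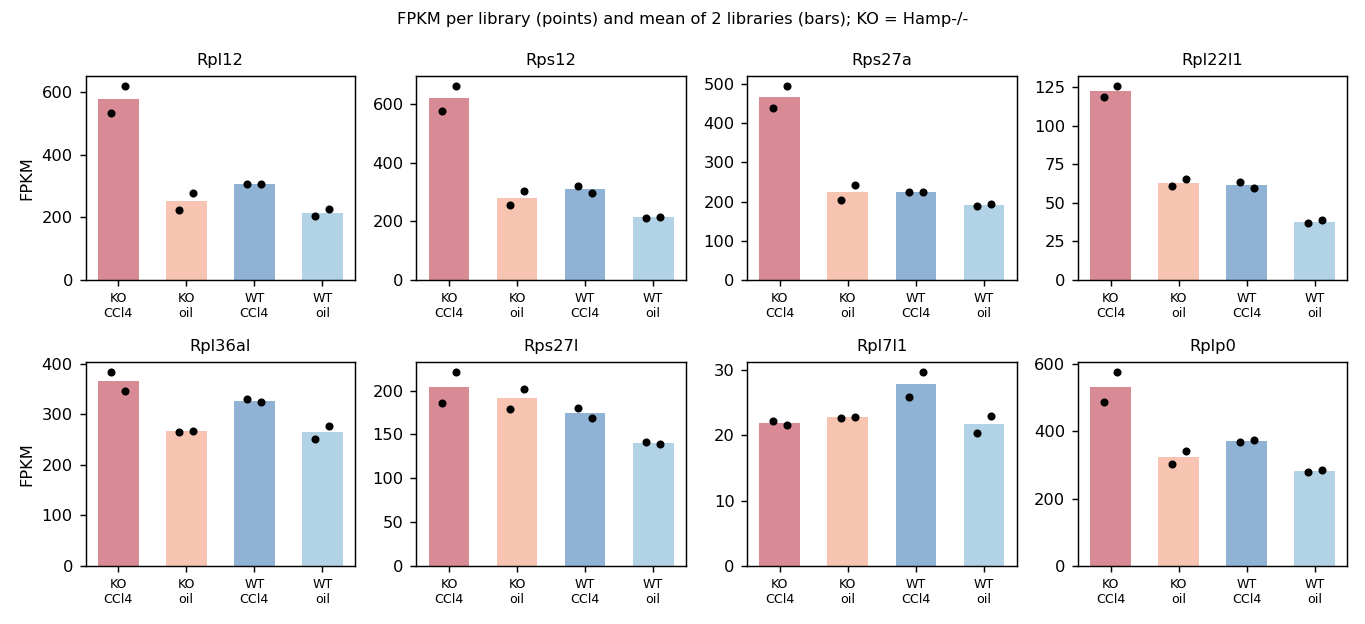
FPKM in each of the 8 libraries of Rpl12, Rps12, Rps27a, Rpl22l1, Rpl36al, Rps27l, Rpl7l1 and Rplp0, 1 panel per gene with an axis from 0; points are libraries and bars the mean of each group. Rpl12, Rps12 and Rps27a are highest in the Hamp-/- CCl4 libraries, Rpl22l1 shows 3 levels, and the Rps27l values of the 2 Hamp-/- groups overlap.

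The 2 replicates of each Hamp-/- group differed in their ribosomal protein genes as a set. Replicate 1 minus replicate 2 had a median over the 82 tested members of -0.24 ± 0.13 (SD over genes) in Hamp-/- CCl4 and -0.25 ± 0.12 in Hamp-/- oil, with 76 and 80 members below 0. The same medians were 0.05 ± 0.12 in wild-type CCl4 and -0.07 ± 0.08 in wild-type oil. Over all tested genes the medians were -0.04 in Hamp-/- CCl4, -0.02 in Hamp-/- oil and 0.01 in each wild-type group. Replicate 2 was thus the higher library for ribosomal protein genes in both Hamp-/- groups, where the CCl4 effect in Hamp-/- had a median of 0.75. The largest single differences were those of Rpl37rt, Rpl38, which in mouse embryos has a role in translation of Hox mRNAs, Rpl36, Rpl41 and Rps19bp1. Rpl38 had 413.46 FPKM in replicate 1 and 558.90 FPKM in replicate 2 of Hamp-/- CCl4, a difference of -0.43. Rpl36 had 199.13 and 294.24 FPKM in Hamp-/- oil, a difference of -0.56.

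This difference followed transcript length and GC content in all genes, not in ribosomal protein genes alone. The rank correlation of the replicate difference with length over 10055 genes was 0.389 in Hamp-/- CCl4, 0.511 in Hamp-/- oil, -0.231 in wild-type CCl4 and 0.239 in wild-type oil. With GC content it was -0.711 in Hamp-/- CCl4, -0.618 in Hamp-/- oil, 0.339 in wild-type CCl4 and -0.192 in wild-type oil. Among the 82 members the rank correlations with length and with GC content were 0.357 and -0.508 in Hamp-/- CCl4, 0.292 and -0.541 in Hamp-/- oil, -0.323 and 0.365 in wild-type CCl4, and 0.263 and -0.279 in wild-type oil. Genes are not replicates, and these are descriptions. The members are short: 77 of 82 had transcripts under 2000 bases, and their median of 816 bases compares with 2855 bases over all tested genes. In Hamp-/- CCl4, other genes in 5 length classes, divided at 500, 1000, 2000 and 4000 bases and given from the shortest, had a median replicate difference of -0.22, -0.20, -0.13, -0.05 and 0.15. The members of the first 4 classes had -0.31, -0.23, -0.22 and -0.07, over 10, 48, 19 and 4 genes. The CCl4 effect in Hamp-/- also fell with length among other genes, with medians of 0.33, 0.19, 0.09, -0.02 and -0.15, while members had 0.85, 0.74, 0.76 and 0.47 in the first 4 classes. Members exceeded other genes of the same length class by 0.49 to 0.66 on the log2 scale in these classes. In wild type, the medians of the CCl4 effect were 0.13, 0.04, 0.04, 0.04 and 0.05 for other genes and 0.25, 0.20, 0.20 and 0.18 for members.

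**Figure D5:**
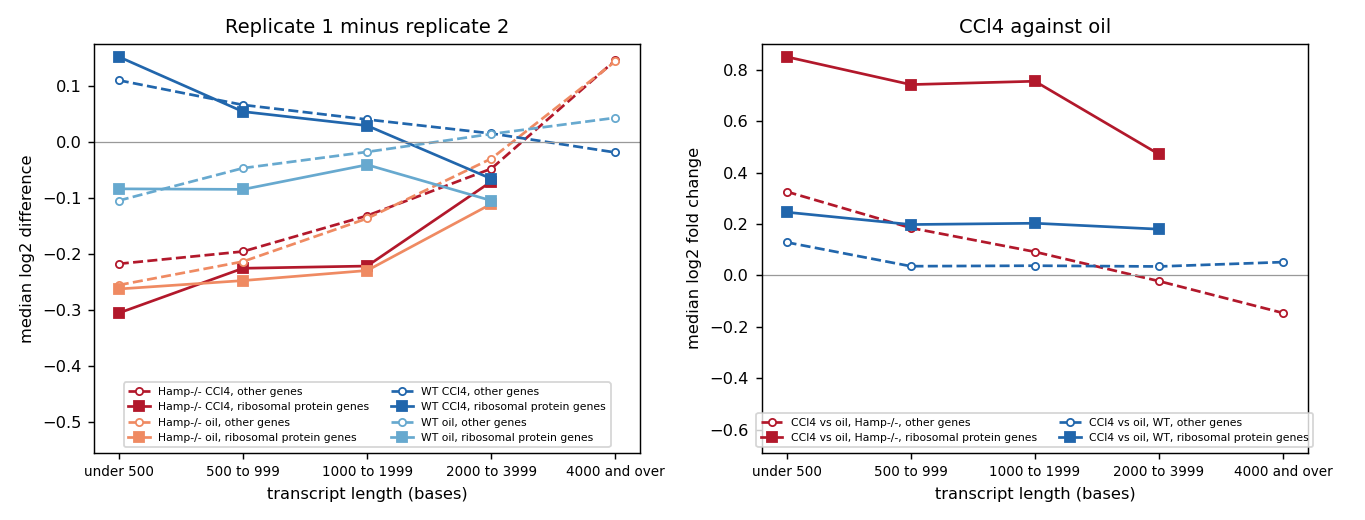
Medians by transcript length class, for ribosomal protein genes (squares, solid lines; the class of 1 member at 4000 bases and over is left out) and other genes (circles, dashed lines). Left, replicate 1 minus replicate 2 on the log2 scale in each group; right, log2 fold change of CCl4 over oil in each genotype. In the Hamp-/- groups both medians change with length for other genes, and the members' CCl4 effect in Hamp-/- lies above that of other genes in each class drawn.

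When a trend with length and GC content was fitted over all genes and removed from each library, the members still stood out in the comparisons that hold the Hamp-/- CCl4 group, by smaller values. In Hamp-/- CCl4 against Hamp-/- oil, 70 members were higher and 0 lower, with a median of 0.43, where 33.0% of all genes were higher. In Hamp-/- CCl4 against wild-type CCl4, 76 were higher and 1 lower, with a median of 0.49, where 33.7% of all genes were higher and 31.8% lower. In the interaction, 60 had a larger response in Hamp-/- and 0 a smaller one, with a median of 0.33 and 23.3% of all genes. The genotype effect in oil then had 26 members higher and 2, Rpl9 and Rpl13a, lower, with a median of 0.10, beside the same 22.9% of all genes higher and 24.2% lower. The CCl4 effect in wild type had 12 higher and 5 lower, with a median of 0.06, where 12.7% of all genes were higher and 15.3% lower. Rps6, Rps18, Rps27 and Rpl36 were among those lower. Since the members are short, the removed trend can take away part of what they share with other genes of like length and GC content. The medians were lower than before removal in all 5 comparisons, but not every value was: in Hamp-/- CCl4 against Hamp-/- oil Rps15a had 1.17 after removal and 0.95 before, Rps20 had 1.14 and 0.96, and in Hamp-/- oil against wild-type oil Rpl22l1 had 1.08 and 0.73. Rpl12 kept 1.10 and Rps27a 0.81 in Hamp-/- CCl4 against Hamp-/- oil, while Rpl36 fell to 0.01, Rps29 to -0.05, Rps27 to -0.12 and Rpl36al to -0.06, none of which passed. Rps27, Rps29 and Rpl36 have the 3 shortest transcripts of the set, and their calls thus depend on how length and GC content are treated.

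Genes that work beside the ribosomal proteins were examined as lists, whose counts are read against the share of all tested genes. Those shares were 27.9% higher and 27.4% lower for CCl4 in Hamp-/-, 29.6% and 27.5% for genotype after CCl4, 14.3% and 19.0% for the interaction, 22.4% and 11.0% for genotype in oil, and 10.2% and 5.61% for CCl4 in wild type. Among 21 TOP mRNA partners (ribosomal proteins with other symbols, elongation and initiation factors and other genes with a pyrimidine run), 14 were higher and 1 lower in Hamp-/- CCl4 than in Hamp-/- oil, with a median of 0.43. Rpsa, a small subunit protein, had 370.64 and 441.24 FPKM in Hamp-/- CCl4 against 185.43 and 211.76 FPKM in Hamp-/- oil (1.03 ± 0.11 SE, n = 2 each; limma adjusted p = 0.000326). Rack1, a signalling scaffold on the small subunit, rose by 0.92, and Fau, a small subunit protein made as a fusion with a ubiquitin-like protein, by 0.58. These 3 ribosome components outside the symbol rule thus rose too. In Hamp-/- CCl4 against wild-type CCl4, 17 of the 21 were higher and 0 lower, and 9 passed the interaction with a larger response in Hamp-/-. In oil, 6 were higher in Hamp-/- and 0 lower, close to the 22.4% of all genes higher, and in wild type CCl4 gave 0 higher and 1 lower, Eif4b, which helps unwind the start of mRNAs, at -0.34 (limma adjusted p = 0.0152). Npm1, a nucleolar chaperone, had 78.51 and 36.22 FPKM in Hamp-/- CCl4 and 76.81 and 25.61 FPKM in Hamp-/- oil, and it passed in no comparison. Its replicates differed by more than 2-fold in both Hamp-/- groups.

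Of 43 genes for ribosome assembly and RNA polymerase I, 24 rose and 0 fell in Hamp-/- with CCl4, where 27.9% of all genes rose, and 8 rose and 0 fell in wild type with CCl4, where 10.2% of all genes rose. Eif6, which keeps new large subunits from joining too early, had 98.03 and 116.25 FPKM in Hamp-/- CCl4 against 30.62 and 37.44 FPKM in Hamp-/- oil (1.63 ± 0.13 SE, n = 2 each; limma adjusted p = 7.54e-05). Nhp2, of the particles that modify ribosomal RNA, rose by 1.51 in Hamp-/- and 0.57 in wild type, and Rrs1, needed for large subunit assembly, by 1.44 and 0.81. Both thus rose in each genotype. Eif6, Nhp2, Rrp9 and Nob1 passed the interaction at 1.27, 0.95, 1.16 and 0.98, as did 9 of the 43 in all, beside 14.3% of all genes. In Hamp-/- CCl4 against wild-type CCl4, 19 were higher and 1 lower, where 29.6% of all genes were higher. In oil 6 were higher and 1 lower in Hamp-/-, a smaller share than the 22.4% of all genes higher.

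Among 15 regulators of ribosomal protein genes and of mTOR signalling, 5 rose and 6 fell in Hamp-/- with CCl4, and 2 rose and 1 fell in wild type. With 27.9% of all genes higher and 27.4% lower in Hamp-/-, the counts for CCl4 in Hamp-/- set the list little apart from other genes. Myc, a transcription factor that drives ribosome production, had 7.24 and 7.44 FPKM in Hamp-/- CCl4, 2.5 and 3.48 in Hamp-/- oil, 2.82 and 2.72 in wild-type CCl4, and 1.74 and 1.26 in wild-type oil. It was higher in Hamp-/- than wild type in both treatments and rose with CCl4 in both genotypes, by 1.08 in Hamp-/- and 0.60 in wild type (limma adjusted p = 0.00101 and 0.0388). Ddit4, an inhibitor of mTOR, had 9.03 and 9.54 FPKM in Hamp-/- CCl4, 50.45 and 56.30 in Hamp-/- oil, 2.14 and 2.08 in wild-type CCl4, and 4.92 and 4.91 in wild-type oil. It fell with CCl4 by 2.40 in Hamp-/- and by 0.93 in wild type on the log2 scale, and was 3.20 higher in Hamp-/- than in wild type under oil. Sesn2, an amino acid sensor that also restrains mTOR, fell by 0.69 with CCl4 in Hamp-/-, while Tsc1, a further inhibitor, rose by 1.07, and Mdm2, the p53 ligase that free ribosomal proteins bind, rose by 1.4. The inhibitors of mTOR thus did not all move one way. In oil, 8 of the 15 were higher in Hamp-/- and 0 lower, beside 22.4% and 11.0% of all genes. After CCl4, 9 were higher in Hamp-/- and 1 lower, beside 29.6% and 27.5% of all genes. In the interaction 2 had a larger and 4 a smaller value in Hamp-/-, beside 14.3% and 19.0% of all genes.

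A pair of other sets of nuclear genes for large complexes gave other counts. Of 77 mitochondrial ribosomal protein genes, which serve the separate ribosome of mitochondria, 11 rose and 18 fell in Hamp-/- with CCl4, with a median of -0.03, beside 27.9% of all genes higher and 27.4% lower. The other comparisons gave 14 higher and 13 lower in Hamp-/- CCl4 against wild-type CCl4, 6 higher and 7 lower in Hamp-/- oil against wild-type oil, 1 higher and 2 lower with CCl4 in wild type, and 2 higher and 6 lower in the interaction. Of 73 tested respiratory chain genes, 3 rose and 19 fell in Hamp-/- with CCl4, with a median of -0.12, against 44 higher and 0 lower in Hamp-/- oil than in wild-type oil, with a median of 0.41, where 22.4% of all genes were higher and 11.0% lower. The cytosolic ribosomal protein genes had 80 of 82 higher in the first of these comparisons and 12 of 82 in the second. Beyond these counts and medians, no test was made of the difference between the lists.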

How the data were processed

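RNA-seq of hepatocytes was deposited as 1 table of 8 libraries, 2 in each of 4 groups, assigned by library title. The authors deposited FPKM values per gene and library, per the file headers; the build was mm8, per the submitters' processing notes. The sources used here do not give the aligner, counting tool, annotation or read numbers, so depth per library is unknown. FPKM divides by transcript length and by mapped fragments, so a gene's value also depends on what other genes take up. Of 16338 rows, 1 names no gene and was left out.

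Values were taken as log2(FPKM + 1), which understates changes of low genes, and the test took in the 10082 genes that reached 1 FPKM in 2 or more libraries, 82 of the 86 members among them. All 8 libraries were fitted in 1 model of 4 groups with limma 3.58.1 (R 4.3.3; trended prior, 4 residual and 2.61 prior degrees of freedom). Benjamini-Hochberg adjustment was made over all genes of a comparison, at 0.05, two-sided. The members and lists were chosen with earlier results of these data known, so no list was tested. Lengths and GC content came from GENCODE M21 transcripts matched by Entrez identifier, with a RefSeq transcript for 84 of the 86 members, in place of the RefSeq annotation first planned, and were found for 99.73% of tested genes. Promoter sequences are from RefSeq on GRCm38.p6, another build than the table's. Scripts were tested on simulated data. Named members are the stalk genes, every paralog, the 5 largest increases and decreases called per comparison, the 5 highest means, the 5 largest replicate differences, and the 3 longest and 3 shortest transcripts, and of the related lists the 4 with the smallest adjusted p per comparison. Rpl22, Rpl6, Rpl9, Rpl10a, Rpl13a, Rpl21, Rpl36a, Rpl39, Rps4x, Rps6, Rps18, Rps24, Fau and Npm1 were named after their values were seen. Values of some genes that meet the naming rule are not reported here. Alternatives were another pseudocount, no filter, equal library medians, quantile normalization, library weights, only the libraries compared, a replicate block, removal of length and GC trends, an FDR of 0.01 and leaving out libraries.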

Additional observations from a re-analysis of the deposited data

Results flagged for a closer look

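The CCl4 response differed between the genotypes by the interaction test of limma in 43 of the 82 tested members. Among the named members, the response was larger in Hamp-/- than in wild type, on the log2 scale, by 0.58 for Rpl10, 0.69 for Rpl12, 0.88 for Rpl27a, 0.86 for Rpl30, 0.77 for Rpl37, 0.62 for Rps12, 0.78 for Rps14, 0.63 for Rps15a, 0.66 for Rps20, 0.66 for Rps27 and 0.83 for Rps27a. Each of these passed at an adjusted p under 0.05, with 2 libraries per group. With length and GC trends removed, Rps27 (0.17, limma adjusted p = 0.153) and Rps20 (0.94, limma adjusted p = 0.133) did not pass. The count of 43 was between 5 and 70 when 1 library was left out, and of the members named here Rpl30 and Rps27a passed in every alternative run. The groups have too few libraries to ask whether 1 of them stands apart.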

How the results depend on the processing

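The counts of 80 and 79 members called in Hamp-/- CCl4 against Hamp-/- oil and against wild-type CCl4 stayed within 1.5 times under every alternative run. The other 3 counts did not. The share of all tested genes called higher moved with the same settings. For CCl4 in wild type it was 10.2% in the main fit, 7.21% with equal library medians and 8.35% with quantile normalization. It was 22.2% with library weights and 24.7% with the block in the knockout alone. In the same order, the genotype effect in oil gave 22.4%, 17.2%, 17.3%, 21.6% and 34.7%. The interaction gave 14.3%, 13.7%, 18.0%, 13.3% and 24.2%. Members called for CCl4 in wild type (9) were 1 with equal library medians, 46 with library weights, 59 with only the libraries compared, 19 with quantile normalization, 61 with the block in the knockout alone, 1 at an FDR of 0.01, and 59 and 59 without replicate 1 or 2 of both Hamp-/- groups. With length and GC trends removed they were 17 (12 higher and 5 lower), and 23 (17 higher and 6 lower) with the replicate block as well. These counts held whether trends were fitted on all genes or on other genes alone (an alternative chosen after seeing the data). The members' median was 0.057 with trends of all genes removed, 0.061 with those of other genes, and 0.203 in the main fit. For the genotype effect in oil (12), equal medians gave 1, only the libraries compared 7, the block in the knockout alone 56, an FDR of 0.01 gave 1, and leaving out replicate 1 or 2 of both Hamp-/- groups 71 and 25. Trend removal gave 28 and, with the block, 31, or 30 and 35 with trends of other genes. In each of these counts 2 members were lower. For the interaction (43), equal medians gave 24, no filter 25, quantile normalization 72, the block in the knockout alone 80, an FDR of 0.01 gave 7, and leaving out replicate 1 or 2 of both Hamp-/- groups 78 and 79. Leaving out 1 library gave 1 to 14 for CCl4 in wild type, 1 to 19 for the genotype effect in oil and 5 to 70 for the interaction.

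Replicate numbers are in the titles, but the samples share only a number. Replicate differences correlated at 0.803 between the 2 Hamp-/- groups, at -0.242 between the 2 CCl4 groups, 0.219 between the oil groups and -0.037 between the wild-type groups. With the replicate block, the calls were 80, 79, 57 in the interaction, 19 for genotype in oil and 11 for CCl4 in wild type. A replicate block with the numbers of the 2 wild-type CCl4 libraries exchanged was added after seeing the data. It crosses the pairing of wild-type CCl4 with Hamp-/- CCl4 and also with both oil groups, and gave 80.

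Weighting FPKM by length, the members' share was 2.75% instead of 5.97% in Hamp-/- CCl4, 1.63% instead of 3.76% in Hamp-/- oil, 1.67% instead of 3.7% in wild-type CCl4 and 1.44% instead of 3.03% in wild-type oil. Under quantile normalization the median replicate differences were -0.0812 in Hamp-/- CCl4 and -0.116 in Hamp-/- oil. With no filter, the length correlations were 0.304, 0.39, -0.172 and 0.168 in Hamp-/- CCl4, Hamp-/- oil, wild-type CCl4 and wild-type oil. Signs changed in Hamp-/- CCl4 against Hamp-/- oil with trends removed, with or without the block, for Rpl36al (-0.061), Rps27 (-0.123) and Rps29 (-0.051), and with trends of other genes for Rpl36al (-0.019) and Rps27 (-0.065). Of 1683 alternative values over 77 pairs of named member and comparison, 1516 stayed on the same side of the threshold, 157 no longer passed and 10 changed sign. The causes were not tested. With 2 libraries per group and no read numbers, precision is known only from the spread between replicates.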
